A study of Canis lupus familiaris with 8 samples.

Results

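The comparison described here sets bone defects of the dog upper jaw that had healed for 6 weeks against defects that had healed for 2 weeks, both without orthodontic tooth movement. It was chosen by the array titles: the 2 arrays of group D6 were compared with the 2 arrays of group D2, which makes 4 of the 8 arrays of the study, and every gene measured was tested. The features were 15947 genes, taken from 22708 probe sets (groups of short probes for the same transcript) by keeping those with 1 gene symbol and, where a gene had several probe sets, the one with the highest mean. Groups D2 and D6 were tissue that had filled a surgical defect together with the neighbouring bone around a premolar root, harvested at 2 and 6 weeks after surgery as the digits of the group names were read. Group C was sound bone around upper premolar roots, and group DT6 was defect tissue at 6 weeks with protraction of a tooth. All defect groups therefore share the surgery and the inclusion of bone beside the defect. The labels give no breed, sex, age or drug treatment for any group, and they do not tie the arrays to animals. The p-values therefore cover the variation among these 8 arrays, part of which may be technical. The question is what changed in the healing tissue between the early and the late time when no tooth was moved.

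Alveolar bone carries the sockets of the teeth and heals like other bone: a clot is replaced by granulation tissue with many dividing cells, osteoblasts lay down woven bone, and osteoclasts later resorb it as lamellar bone takes its place. Osteoblasts make collagen and mineral-binding proteins, osteocytes are osteoblasts buried in the matrix, and osteoclasts dissolve mineral with a proton pump and digest collagen with cathepsin K. The upper jaw lies under the nasal cavity and the maxillary sinus, which are lined by ciliated and mucus-secreting columnar epithelium, and it is covered on the oral side by stratified squamous gingiva. Type I interferons, which most cells release on sensing foreign or misplaced nucleic acids, switch on a common set of antiviral genes in the cells that receive them.

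Total RNA was labelled and hybridised to Affymetrix whole-transcript arrays, and all levels below are the deposited probe set values, read as log2 because the base of their logarithm is not stated. The array medians lay between 6.25 and 6.31, and the replicates correlated across genes with r = 0.986 in D2 and r = 0.975 in D6. The labelled tissue was checked by markers of bone cells. The osteoblast genes RUNX2, ALPL, IBSP and COL1A1 had values of 10.22 or more in every D2 and D6 array. The osteoblast genes SP7 and BGLAP were lower, at 7.88 to 8.49 and 7.77 to 8.48. The osteoclast protease gene CTSK had values of 11.77 or more, so bone transcripts were present at both times. Arrays of a group were unequal in 1 respect that touches the results: the 49 genes of stratified oral epithelium averaged 5.36 in D2 array 1 and 6.55 in D2 array 2, and 7.70 in D6 array 1 and 5.29 in D6 array 2. The averages in C and DT6 lay between 5.39 and 5.61. Values from a fit without D2 array 2 and D6 array 1 are therefore also given. That fit keeps 1 array of D2 and 1 of D6, so its estimate of the spread comes from C and DT6 alone. Its counts and p-values do not measure variation within D2 or D6 and are descriptions only. Arrays have no sequencing depth, and their number limits the precision.

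Across the 15947 genes, 268 differed between D6 and D2 at an adjusted p under 0.05 (limma, all 8 arrays in 1 fit), which is 1.68% of the genes tested. Of these, 34 rose (0.213%) and 234 fell (1.47%) from 2 to 6 weeks. The falls were also the larger changes: 91 genes fell by over 2 log2 units, against 3 that rose by that much. The smallest called changes were a fall of -0.73 and a rise of 0.78, and the median difference over all genes was 0.02. In the 4 lists of airway secretion, mucin, columnar epithelium and motile cilium genes, 89 of 196 measured genes fell. In the list of interferon-stimulated genes, 20 of 57 rose, and these were 20 of the 34 rises. When D2 array 2 and D6 array 1 were left out, 17 of the 34 rises and 137 of the 234 falls were still past the threshold. By leaving out each of the 8 arrays in turn, 6 rises and 113 falls passed whichever array was missing. The rises numbered 7 without D2 array 1, 20 without D2 array 2 and 52 without D6 array 2, and the falls numbered 138 without D2 array 1 and 156 without D6 array 2. An exact permutation test of 2 arrays against 2 cannot go below p = 0.333, so the evidence for a gene rests on limma's pooled estimate of the spread.

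**Figure D1:**
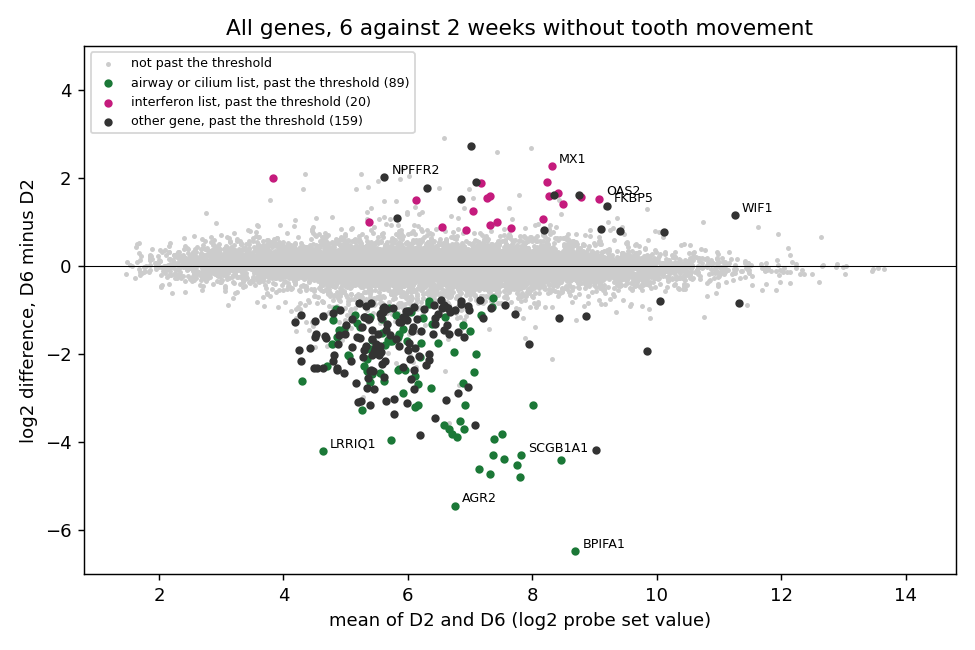
Each point is 1 gene, with its mean over the 4 arrays of D2 and D6 on the horizontal axis (log2 probe set value) and the log2 difference D6 minus D2 on the vertical axis. Green points are the 89 called genes of the airway and cilium lists, all below 0, pink points are the 20 called interferon genes, all above 0, and dark points are the other 159 called genes.

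The plot of all genes shows the called falls reaching -6.48 and the called rises reaching 2.73. Genes with differences above 2 that were not called included KRT76, a keratin of the oral mucosa, and DMP1, an osteocyte phosphoprotein, in both of which the D6 arrays were over 5 units apart.

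The largest falls were of proteins that line or wet the upper airway. BPIFA1, an abundant antibacterial protein of nasal fluid, had values of 12.60 and 11.25 in the D2 arrays and 6.04 and 4.86 in the D6 arrays. Both D2 arrays stood far above both D6 arrays, with a difference of -6.48 ± 0.54 (SE, 2 arrays against 2), which is 89.0-fold lower at 6 weeks (adjusted p = 0.000437). Its relative BPIFB1 had 10.88 and 8.02 in D2 and 5.07 and 4.58 in D6, a fall of -4.62 ± 0.76 (adjusted p = 0.0171). The D2 arrays of BPIFB1 were themselves 2.86 apart, and it passed in 5 of the 8 fits that left out 1 array.

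SLPI, a protease inhibitor of mucosal secretions, had 10.53 and 10.80 in D2 and 6.53 and 5.99 in D6. It fell by -4.40 ± 0.42, with the groups well apart. PIGR, the receptor that carries IgA and IgM across epithelia into secretions, had 10.27 and 9.22 in D2 against 5.66 and 5.07 in D6, a fall of -4.38 ± 0.34 (adjusted p = 0.000358). SCGB1A1, the club cell secretory protein, had 10.06 and 9.88 against 6.36 and 4.98, a fall of -4.30 ± 0.61 (adjusted p = 0.00753). LTF, the iron-binding lactoferrin of secretions and of neutrophil granules, had 10.10 and 8.95 against 5.29 and 5.16, a fall of -4.30 ± 0.38. In each of these genes both D2 arrays were above both D6 arrays. VMO1, which is in none of the lists and encodes a secreted protein, had 11.12 and 11.11 against 7.36 and 6.54 and fell by -4.17 ± 0.29. In the whole list of secreted proteins of airway and gland epithelium, 10 of 31 measured genes fell and 0 rose, with a list median of -0.97 against 0.02 over all genes. The D6 arrays were below the D2 arrays without overlap in 18 of the 31, where 19.8% of all genes were. In the fit that left out D2 array 2 and D6 array 1, 14 fell and the median was -1.62.

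Genes of mucus cells were also among the largest falls. AGR2, the disulfide isomerase that goblet cells need to fold mucins, had 9.73 and 9.22 in D2 and 4.34 and 3.73 in D6, so the groups were over 4 units apart. Its difference of -5.44 ± 0.25 was 43.4-fold (adjusted p = 2.86e-05). TSPAN1, a tetraspanin of secretory epithelium, had 10.21 and 10.17 against 5.82 and 5.01 and fell by -4.78 ± 0.26. CLCA1, a protein secreted with mucus by goblet cells, had 10.49 and 8.89 against 5.04 and 4.87 and fell by -4.73 ± 0.62 (adjusted p = 0.00499), with D2 array 1 the higher of its group. MUC13, a membrane-bound mucin, had 10.18 and 9.84 against 6.63 and 4.36 and fell by -4.51 ± 0.59 (adjusted p = 0.00497). The D6 arrays of MUC13 differed by over 2 units, D6 array 1 being the higher. Of the 26 measured mucin and goblet cell genes 8 fell and 0 rose, with a median of -0.42. Among the 9 mucins themselves 4 fell, and so did 2 of the 3 trefoil factors, small peptides secreted with mucus. With D2 array 2 and D6 array 1 left out, 7 of the 26 fell, among them 3 mucins.

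Genes of columnar epithelial cells fell with them, 11 of 38 measured and 0 rises, with a median of -0.69. PROM1, a protein of apical membrane protrusions, was the most even of the large falls. It had 9.38 and 9.31 in D2 and 5.49 and 5.35 in D6, a difference of -3.93 ± 0.14 (adjusted p = 9.76e-06). TMC5, a transmembrane channel-like protein, had 8.68 and 8.56 against 5.10 and 4.52 and fell by -3.81 ± 0.22. ALDH1A1, which makes retinoic acid from retinal, had 8.69 and 8.33 against 4.95 and 4.69 and fell by -3.69 ± 0.29. CYP2F1, a cytochrome P450 of airway epithelium, had 8.18 and 8.80 against 5.54 and 5.13 and fell by -3.15 ± 0.39. These 2 enzymes are also in the list of cytochrome P450, FMO, ALDH and GST enzymes. There 5 of 56 fell and 1 rose (10.7% called, against 1.68% of all genes), and the median was -0.05. GPX2, an epithelial glutathione peroxidase, had 8.19 and 8.32 in D2 but 6.33 in D6 array 1 and 4.39 in D6 array 2, so its fall of -2.89 ± 0.50 (adjusted p = 0.0212) came with unequal replicates. CYP3A12, a canine drug-metabolising P450, had 6.61 and 6.39 against 3.66 and 4.02 and fell by -2.66 ± 0.26. The mucosal chemokine CXCL17 was the 1 of 46 chemokine and receptor genes that fell (2.17%, against 1.47% of all genes). It had 7.61 and 8.65 against 5.20 and 4.98, a fall of -3.04 ± 0.33 (adjusted p = 0.00191).

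**Figure D2:**
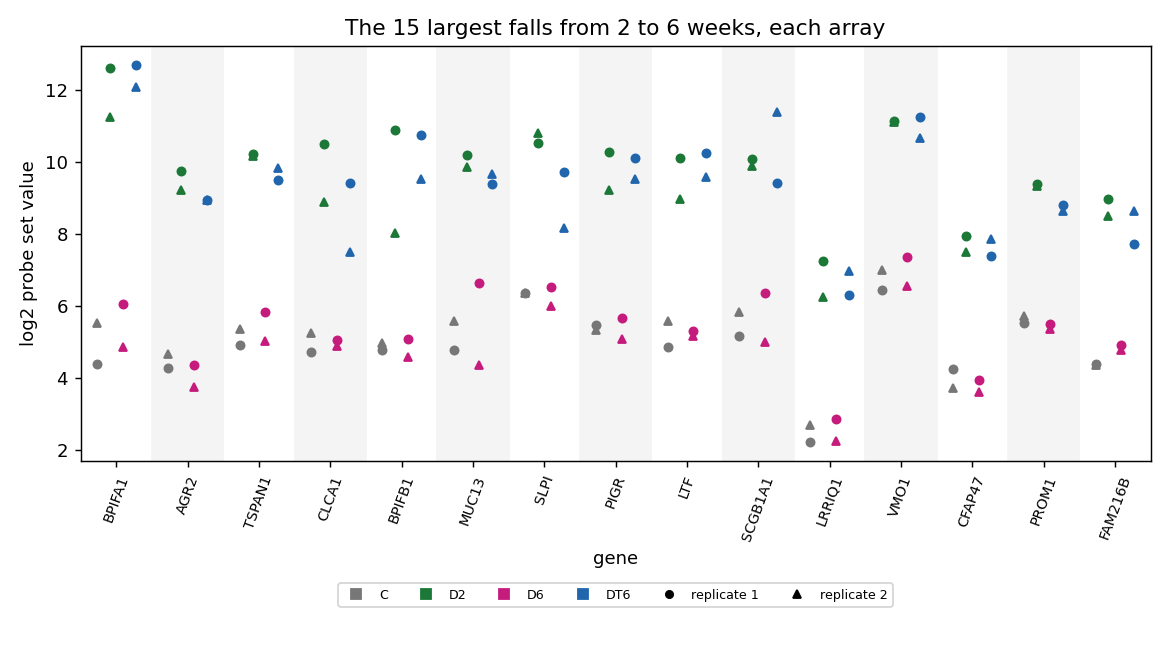
The log2 probe set value of the 15 genes with the largest falls is plotted for each array, with the group in colour and the replicate as circle or triangle. In every gene both D2 arrays (green) lie above both D6 arrays (pink), with BPIFA1 from 12.60 to 4.86, while the C arrays (grey) lie low and the DT6 arrays (blue) high.

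Of the 42 gene lists, the motile cilium list had the highest share of falls. A motile cilium is built on a ring of microtubules that slide past each other under the pull of dynein arms, steered by radial spokes and a central pair. Of the 101 measured genes 60 fell (59.4%, against 1.47% of all genes) and 0 rose, with a median of -1.15. In 90 of the 101 (89.1%) both D6 arrays were below both D2 arrays, against 19.8% of all genes. LRRIQ1 had the largest fall of the list, with 7.23 and 6.24 in D2 and 2.84 and 2.23 in D6, a difference of -4.20 ± 0.37 (adjusted p = 0.000641). CFAP47, a cilia- and flagella-associated protein, had 7.94 and 7.48 against 3.94 and 3.59 and fell by -3.95 ± 0.26. FAM216B had 8.97 and 8.49 against 4.92 and 4.78 and fell by -3.88 ± 0.28. CFAP126, which helps place the basal bodies of cilia, had nearly equal replicates, 8.49 and 8.27 against 4.80 and 4.73, and fell by -3.61 ± 0.15 (adjusted p = 2.44e-05).

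The cilium genes can be grouped by the part they build. Of 15 dynein arm genes 12 fell, with a median of -1.54. In all 15 both D6 arrays were below both D2 arrays, where 19.8% of all genes were. DNAI1, an intermediate chain of the outer dynein arm, had 6.67 and 6.53 in D2 and 4.71 and 5.08 in D6, a fall of -1.70 ± 0.21 (adjusted p = 0.00338). Of 8 central pair genes 6 fell with a median of -1.82, and of 7 genes of the nexin-dynein regulatory complex and the molecular ruler 5 fell with a median of -1.15. Of 4 radial spoke genes 2 fell, among them RSPH1, a spoke head protein, with 6.66 and 6.48 against 4.67 and 5.06 and a fall of -1.70 ± 0.21. Of 9 factors that assemble or dock dynein 3 fell, with a median of -0.78. TEKT1, a filament protein inside the ciliary microtubules, had 6.79 and 6.70 against 5.88 and 6.00 and fell by -0.80 ± 0.16 (adjusted p = 0.0401). Of 5 regulators of ciliary gene expression 1 fell. FOXJ1, the transcription factor that drives motile cilium formation, had 7.04 and 7.18 in D2 and 6.94 and 7.08 in D6, so its arrays overlapped, with a difference of -0.10 ± 0.17 (adjusted p = 0.997). Differences between these parts were not tested. Without D2 array 2 and D6 array 1, 37 cilium genes fell with a median of -1.28. In that fit the falls numbered 8 among dynein arm genes, 4 among central pair genes, 2 in the nexin and ruler group, 2 among radial spoke genes, 3 among assembly factors and 0 among regulators. The count was also 37 when the dimmest 25% of all genes were left out of the test, 32 without D2 array 1 and 39 without D6 array 1.

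The airway and cilium genes were at like levels in D6 and in sound bone. The 31 airway secretion genes averaged 7.83 and 7.08 in the D2 arrays, 5.74 and 5.66 in D6, 5.67 and 5.73 in C, and 7.51 and 7.33 in DT6. The 101 cilium genes averaged 6.50 and 6.30 in D2, 5.07 and 5.04 in D6, 5.08 and 5.04 in C, and 6.24 and 6.44 in DT6. High levels were thus found in both D2 and both DT6 arrays, and low levels in both D6 and both C arrays. Comparisons of D2 with C and of DT6 with D6 use these same arrays, so the values are only set side by side. In bulk tissue, fewer cells of a type and less RNA per cell cannot be told apart. The share of nasal or sinus lining in each tissue block was not tested, and the labels do not record it.

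**Figure D3:**
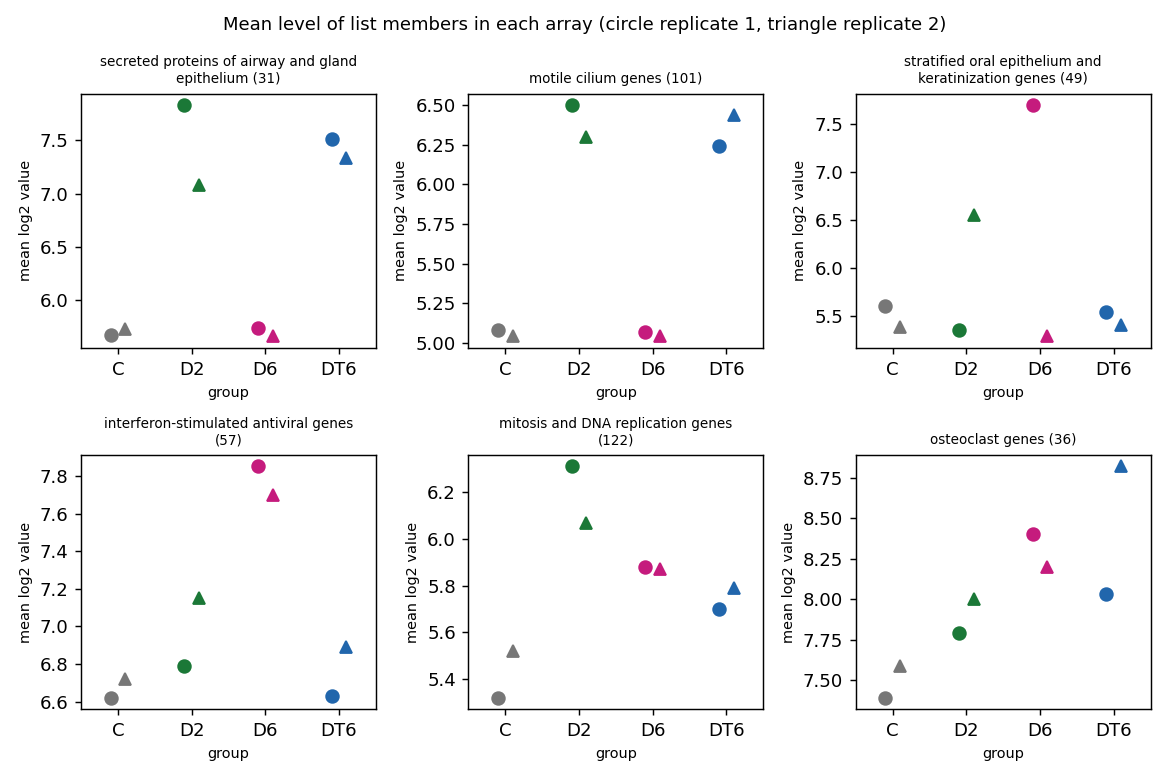
Each panel shows, for every array, the mean log2 probe set value of the measured members of 1 gene list, with groups along the horizontal axis. Airway secretion and cilium genes are high in D2 and DT6, oral epithelium genes are high in D2 array 2 (6.55) and D6 array 1 (7.70), interferon genes are high in both D6 arrays (7.85 and 7.70), mitosis genes are highest in D2, and osteoclast genes are higher in D6 than in D2.

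The genes that rose were mostly interferon-stimulated. Of the 57 measured genes of that list 20 rose and 0 fell, with a median of 0.81, and in 45 of the 57 both D6 arrays were above both D2 arrays, where 23.5% of all genes were. MX1, a dynamin-like GTPase that traps viral nucleocapsids, had 6.62 and 7.73 in D2 and 9.56 and 9.34 in D6. The groups were apart in spite of a gap of over 1 unit within D2, and the difference was 2.27 ± 0.30, which is 4.83-fold (adjusted p = 0.00486). OAS2, an oligoadenylate synthetase that activates RNA decay on sensing double-stranded RNA, had 8.03 and 8.60 against 9.89 and 9.79 and rose by 1.53 ± 0.18 (adjusted p = 0.00289). Its paralog OAS1 had 6.00 and 6.99 against 8.21 and 7.89 and rose by 1.55 ± 0.28 (adjusted p = 0.0297), with D2 array 2 again the higher of its group. MX1 and OAS2 passed in all 8 fits that left out 1 array, and OAS1 in 3.

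ISG15, a ubiquitin-like protein that is attached to other proteins during the antiviral response, was dim, with 2.17 and 3.50 in D2 and 5.03 and 4.63 in D6. It rose by 1.99 ± 0.39 (adjusted p = 0.0392) and passed in 1 of the 8 fits without an array. USP18, the protease that removes ISG15 and damps the interferon receptor, had 5.98 and 6.49 against 8.03 and 8.20 and rose by 1.88 ± 0.26 (adjusted p = 0.00601). HERC6, a ligase of the family that attaches ISG15, had 7.04 and 7.51 against 9.37 and 8.99 and rose by 1.91 ± 0.26 (adjusted p = 0.00569). Of the 6 genes of ISG15 and its enzymes 4 rose, and all 6 had both D6 arrays above both D2 arrays, where 23.5% of all genes did. RTP4, an interferon-induced chaperone of membrane receptors, had 7.18 and 7.76 against 9.17 and 8.97 and rose by 1.60 ± 0.19. PARP14, a mono-ADP-ribosyltransferase, had 6.46 and 6.59 against 8.22 and 8.0 and rose by 1.59 ± 0.19, with an adjusted p of 0.00329 for each of the 2 genes. IFI44L had 7.25 and 7.92 against 9.40 and 9.11 and rose by 1.67 ± 0.26, and its paralog IFI44 had 7.70 and 8.28 against 9.73 and 9.39 and rose by 1.57 ± 0.25.

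The remaining members that rose, named here after their values were seen to complete the list, were IFIT2, MX2, DHX58, IFIH1, IFI6, HERC5, DTX3L, OAS3, PML and IFI35, with rises from 0.81 for IFI35 to 1.49 for IFIT2. Of these, MX2 (adjusted p = 0.0302) and DHX58 (adjusted p = 0.0419) also passed without D2 array 2 and D6 array 1. By role, 9 of 19 antiviral effectors rose, and of the 3 cytosolic RNA sensors of the RIG-I family 2 rose, IFIH1 and DHX58, while DDX58, which encodes RIG-I itself, differed by 1.06 ± 0.22 (adjusted p = 0.0539). Of 4 interferon signalling factors 0 rose in limma and 1 had an unadjusted p under 0.05. That gene was IRF9, the DNA-binding part of the factor that type I interferon activates, with 7.24 and 7.34 against 7.84 and 8.04 and a difference of 0.66 ± 0.14 (adjusted p = 0.0588). The 3 guanylate-binding proteins, which respond strongly to interferon gamma, had a median of 0.15, 0 of them passed in limma, 0 had an unadjusted p under 0.05, and in 0 of them were the groups apart. CXCL10, a chemokine induced by interferon gamma, had 5.79 and 6.14 in D2 and 6.79 and 5.97 in D6. Its difference of 0.42 ± 0.33 did not pass (adjusted p = 0.941). Which type of interferon, if any, lay behind the values of this list was not tested. In the fit without D2 array 2 and D6 array 1 the rises numbered 6 among effectors, 1 among the RNA sensors and 3 among ISG15 and its enzymes.

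**Figure D4:**
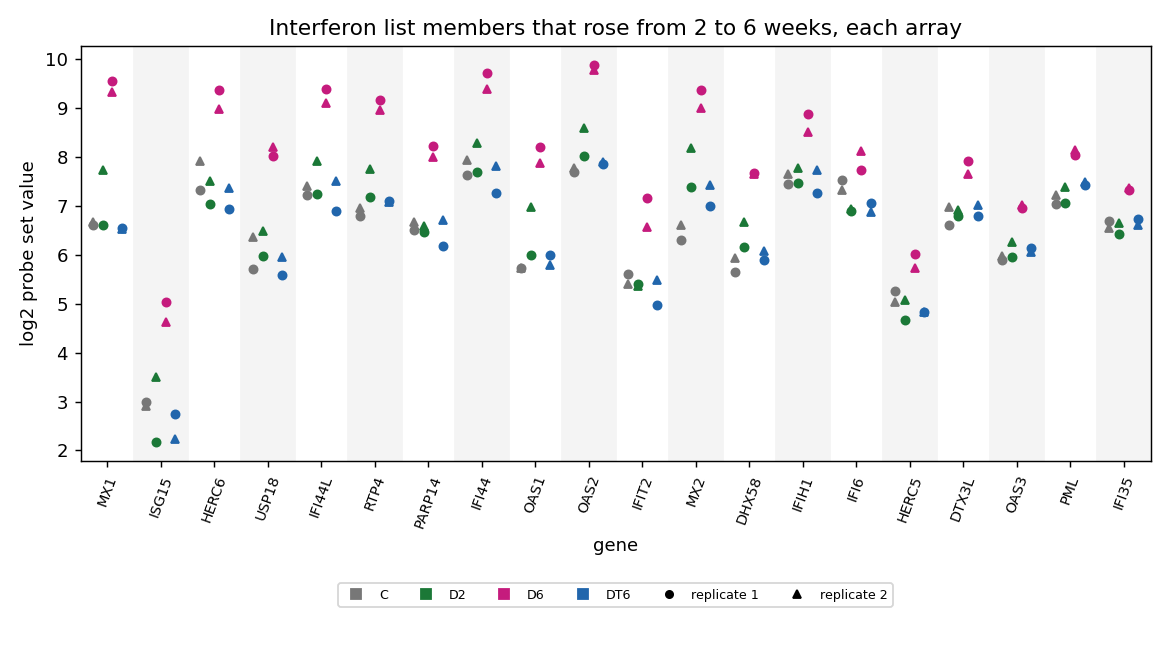
The log2 probe set value of the 20 interferon list members that rose is plotted for each array, with the group in colour and the replicate as circle or triangle. In every gene both D6 arrays (pink) lie above the arrays of C, D2 and DT6, for example OAS2 at 9.89 and 9.79 against 8.60 at most elsewhere.

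The plot of interferon genes by array shows D2 array 2 above D2 array 1 in most members. The 57 genes averaged 6.79 and 7.15 in the D2 arrays, 7.85 and 7.70 in D6, 6.62 and 6.72 in C, and 6.63 and 6.89 in DT6. With each array left out in turn, the list median lay between 0.61 and 0.95 and the count of rises between 4 and 20. With D2 array 2 and D6 array 1 left out, 12 members rose with a median of 0.91. The count was 4 without D2 array 1, 8 without D6 array 1 and 9 without D6 array 2. Both arrays of D6 carried the higher level, and D6 array 1 is also the array with high oral epithelium transcripts. In D6 array 2, whose oral epithelium average of 5.29 was the lowest of the 8 arrays, the interferon average was 7.70. That is 1 array only, and any link between oral epithelium transcripts and the interferon values was not tested.

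Some rises lay outside the interferon list, although RNF213 and MYD88 are also linked to antiviral defence. RNF213, a very large ubiquitin ligase, had 7.58 and 8.30 in D2 and 9.74 and 9.38 in D6 and rose by 1.62 ± 0.26 (adjusted p = 0.0142). The largest rise of all, 2.73 ± 0.35, belonged to LOC488947, which the annotation gives no other name. It had 5.09 and 6.21 against 8.62 and 8.15 and passed in all 8 fits without an array. The other 2 genes known only by a locus identifier that rose were LOC606863, by 1.91 ± 0.24, and LOC100684769, by 1.78 ± 0.36. DLA88, a class I histocompatibility gene of the dog, was the 1 of 35 antigen presentation genes that rose (2.86%, against 0.213% of all genes). It went from 9.70 and 9.76 to 10.51 and 10.51, a difference of 0.78 ± 0.13 (adjusted p = 0.0204). In 15 of the 35 (42.9%) both D6 arrays were above both D2 arrays and in 8 (22.9%) below, against 23.5% and 19.8% of all genes. An unadjusted limma p under 0.05 was found in 8 of the 35, where 7.88% of all genes had one.

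NPFFR2, the receptor of the neuropeptide FF, is not in the interferon list. It had 4.57 and 4.65 in D2 and 6.31 and 6.96 in D6, a rise of 2.02 ± 0.32 (adjusted p = 0.0138), with 7.03 and 7.71 in C and 5.49 and 6.24 in DT6. Both D6 arrays were thus above D2 and below C, and the gene passed in 5 of the 8 fits without an array. CPXM2, a carboxypeptidase-like secreted protein, had 7.29 and 7.79 against 9.20 and 9.13 and rose by 1.62 ± 0.31 (adjusted p = 0.0343). WIF1, a secreted inhibitor that binds Wnt ligands, had 10.78 and 10.57 against 11.81 and 11.84 and rose by 1.15 ± 0.19 (adjusted p = 0.0192). It was the 1 of 71 Wnt pathway genes that rose (1.41%, against 0.213% of all genes), and 0 of them fell. TGFB2, a growth factor stored in bone matrix, was the 1 of 66 genes of the BMP, TGF-beta and activin pathway that rose (1.52%). It had 8.82 and 8.54 against 9.42 and 9.65, a rise of 0.85 ± 0.15 (adjusted p = 0.0223).

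FKBP5, a co-chaperone of the glucocorticoid receptor that glucocorticoids induce, had 8.59 and 8.45 in D2 and 9.67 and 10.10 in D6 and rose by 1.37 ± 0.22 (adjusted p = 0.0162). It stood at 9.41 and 9.98 in C and 8.18 and 8.54 in DT6, so the D6 arrays were near those of C and above those of DT6. It was the 1 of 24 glucocorticoid-induced genes that rose (4.17%, against 0.213% of all genes). In 14 of the 24 both D6 arrays were above both D2 arrays, in 4 below, against 23.5% and 19.8% of all genes, and the list median was 0.32. MT1E, PKHD1L1, MYD88 and CYP1B1, named after their values were seen, complete the 34 rises, with differences of 1.52, 1.09, 0.81 and 0.80. Without D2 array 2 and D6 array 1, the differences of WIF1, TGFB2 and DLA88 were 1.06, 0.83 and 0.82 and did not pass, with adjusted p-values of 0.472, 0.41 and 0.53. Those of FKBP5 and CPXM2, 1.51 and 1.84, did not pass either, with adjusted p-values of 0.065 and 0.0758. MT1E, PKHD1L1, MYD88 and CYP1B1 kept their direction in that fit and did not pass, with adjusted p-values of 0.0609, 0.477, 0.387 and 0.442.

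A few genes of other cell types fell. SLC11A1, a metal transporter of phagosomes, was the 1 of 57 monocyte and macrophage genes that fell, from 7.02 and 7.22 to 6.02 and 6.32, a difference of -0.95 ± 0.16 (adjusted p = 0.0204). The macrophage list had a median of 0.00, and 1.75% of it fell, against 1.47% of all genes. CD14, the lipopolysaccharide co-receptor, had 8.79 and 9.06 in D2 and 9.02 and 8.86 in D6, and CD68, a lysosomal glycoprotein of macrophages, had 9.04 and 9.45 against 9.82 and 9.74 without passing. In the neutrophil and granulocyte precursor list 2 of 34 (5.88%) fell, LTF and OLFM4, and both are made by epithelium as well. OLFM4 is a glycoprotein of mucosal crypts and of a subset of neutrophils. OLFM4 had 6.35 and 7.08 against 4.39 and 4.73 and fell by -2.16 ± 0.34 (adjusted p = 0.0142).

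Among matrix genes, OGN, a small leucine-rich proteoglycan of bone, had 11.75 and 11.75 in D2 and 10.98 and 10.82 in D6 and fell by -0.85 ± 0.17 (adjusted p = 0.0498). MFAP4, a protein of elastic microfibrils, had 6.69 and 6.81 against 5.80 and 5.75 and fell by -0.97 ± 0.15 (adjusted p = 0.0106). These were 2 of 73 fibrillar matrix and collagen assembly genes, with 0 rises and a median of -0.15. In that list both D6 arrays were below both D2 arrays in 25 genes (34.2%) and above in 7 (9.59%), against 19.8% and 23.5% of all genes, and 2.74% of the list was called against 1.68% of all genes. COL1A1, the main collagen chain of bone, had 13.72 and 13.64 against 13.56 and 13.66 and overlapped between groups. COL3A1, a collagen of early repair tissue, had 12.32 and 12.34 against 11.63 and 12.25, with a difference of -0.39 ± 0.27 that did not pass.

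SERPINA1, the antiprotease alpha-1 antitrypsin, fell by -0.99 ± 0.18 from 7.18 and 7.34 to 6.37 and 6.17. It was the 1 of 42 genes of the cartilage list to change (2.38%, against 1.68% of all genes). Of 32 Schwann cell and nerve genes 2 fell (6.25%). UCHL1, a ubiquitin hydrolase of neurons, had 7.24 and 6.81 against 5.79 and 5.91 and fell by -1.17 ± 0.20, and SOX2, a transcription factor of stem cells in nerve and in epithelia, had 7.41 and 7.15 against 6.50 and 6.34 and fell by -0.86 ± 0.16. SLC2A3, the glucose transporter GLUT3, was the 1 of 43 glycolysis and hypoxia genes that fell (2.33%, against 1.47% of all genes). It went from 8.90 and 9.15 to 7.73 and 7.96 (-1.18 ± 0.23, adjusted p = 0.0454). When the same 2 arrays, D2 array 2 and D6 array 1, were left out, the genes SLC11A1, OLFM4, OGN, MFAP4, SERPINA1, UCHL1, SOX2 and SLC2A3 kept their direction but did not pass, with adjusted p-values from 0.11 for UCHL1 to 0.814 for SLC11A1. In that fit LTF of the granulocyte list differed by -4.94. S100A8 and S100A12, 2 calcium-binding proteins of neutrophils, had 6.08 and 7.31 in D2 array 1 and 4.17 and 5.49 in D6 array 2. The order was the opposite in the arrays left out, with 8.91 and 9.80 in D2 array 2 and 10.13 and 10.41 in D6 array 1. Neither gene passed in limma over all 8 arrays (adjusted p = 0.997 for each). In the Schwann cell and nerve list FXYD3, a regulator of the sodium pump that epithelia also make, differed in that fit by -4.16. These 3 additional genes are named after their values were seen.

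Genes of cell division were lower at 6 weeks in most members, but none passed the threshold. Of the 122 measured genes of mitosis and DNA replication 0 passed in limma and 38 had an unadjusted p under 0.05, against 7.88% of all genes. Both D6 arrays were below both D2 arrays in 79 of the 122 (64.8%) and above in 6 (4.92%), against 19.8% and 23.5% of all genes, and the list median was -0.31. MKI67, the nuclear protein that marks dividing cells, had 8.25 and 8.0 in D2, 7.46 and 7.42 in D6, and 5.96 and 6.27 in C. Its groups did not overlap, the difference being -0.68 ± 0.18 (adjusted p = 0.155). DEPDC1, a protein of dividing cells, had 6.07 and 5.17 against 4.61 and 4.48, a difference of -1.08 ± 0.32, and NUF2, a kinetochore subunit, had 6.10 and 5.58 against 5.06 and 4.63, a difference of -0.99 ± 0.34. The 11 mitotic kinesins had a median of -0.29 with 8 apart downward (72.7%, against 19.8% of all genes). The 10 subunits of the replicative helicase had a median of -0.03. Of these subunits 5 (50.0%) were apart downward and 3 (30.0%) upward, against 19.8% and 23.5% of all genes. On the average of the whole list the D2 arrays stood at 6.31 and 6.07, D6 at 5.88 and 5.87, and C at 5.32 and 5.52.

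Osteoclast genes leaned the other way, also without a call. Of 36 measured genes 0 passed in limma and 5 had an unadjusted p under 0.05, where 7.88% of all genes did. In 24 (66.7%) both D6 arrays were above both D2 arrays, against 23.5% of all genes, in 0 below, and the median was 0.31. ACP5, the tartrate-resistant acid phosphatase used to stain osteoclasts, had 9.91 and 10.59 in D2 and 11.50 and 11.01 in D6, a difference of 1.00 ± 0.33 (adjusted p = 0.349). MMP9, a gelatinase of osteoclasts and myeloid cells, had 8.83 and 9.57 against 10.63 and 10.35, a difference of 1.29 ± 0.36 (adjusted p = 0.199). SLC9B2, a sodium-proton exchanger made during osteoclast formation, had 8.26 and 8.74 against 10.12 and 9.56, a difference of 1.34 ± 0.37 (adjusted p = 0.203). In all 3 the groups did not overlap, and the gap between them was under 1 unit. CTSK had 11.77 and 12.02 against 12.44 and 12.19, a difference of 0.42 ± 0.26 (adjusted p = 0.855). The 10 proton pump subunits had a median of 0.28, with 6 apart upward (60.0%, against 23.5% of all genes). Of these subunits 0 were called in limma and 0 had an unadjusted p under 0.05. The macrophage genes CD68 and CSF1R, which osteoclast precursors also express, were higher in both D6 arrays by 0.54 ± 0.24 and 0.47 ± 0.27 and did not pass. In the macrophage list 22 of 57 genes (38.6%) were apart upward and 14 (24.6%) downward, against 23.5% and 19.8% of all genes. The median of that list was 0.00, and CD14 overlapped between the groups. MMP13, a collagenase of bone cells, had 11.01 and 11.36 against 12.29 and 11.85, a difference of 0.89 ± 0.26 (adjusted p = 0.232).

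Osteoblast genes had a median near that of all genes. Of 43 measured members 0 passed in limma and 6 had an unadjusted p under 0.05, where 7.88% of all genes did. The list median was -0.07. RUNX2, the transcription factor that commits cells to bone formation, had 10.47 and 10.22 in D2 and 10.38 and 10.47 in D6, a difference of 0.08 ± 0.15. SP7, which acts after it, had 8.49 and 8.08 against 7.88 and 8.07, a difference of -0.31 ± 0.26. ALPL, the alkaline phosphatase that frees phosphate for mineral, had 11.16 and 10.87 against 10.52 and 10.71, a difference of -0.39 ± 0.33. For BGLAP, which encodes osteocalcin, the difference was 0.02 ± 0.30, and for IBSP, bone sialoprotein, 0.13 ± 0.41, both with overlapping arrays. The sign of RUNX2, BGLAP and IBSP depended on which array was left out, so no direction is given for them. TNFSF11, the osteoclast-inducing ligand RANKL, and its decoy receptor TNFRSF11B each differed by 0.21, with standard errors of 0.37 and 0.24 and overlapping arrays.

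Osteocyte genes and the phosphoproteins of bone and dentin had a median of 0.18. Of the 25 genes 0 passed in limma and 5 had an unadjusted p under 0.05, where 7.88% of all genes did. In 8 of the 25 (32.0%) both D6 arrays were above both D2 arrays, against 23.5% of all genes, and in 2 below. SOST, the osteocyte inhibitor of bone formation, had 6.83 and 6.80 in D2, 7.43 and 7.35 in D6, and 8.33 and 7.96 in C. The replicates were close and the groups apart, with a difference of 0.57 ± 0.18 (adjusted p = 0.283). MEPE, a matrix phosphoglycoprotein of osteocytes, had 8.57 and 8.88 against 9.67 and 9.13 (0.67 ± 0.21, adjusted p = 0.275), and PHEX, a membrane peptidase of osteocytes that controls phosphate, had 8.97 and 8.44 against 9.37 and 10.06 (1.01 ± 0.28, adjusted p = 0.192). SPP1, osteopontin, had 12.20 and 12.43 against 13.17 and 12.79, a difference of 0.67 ± 0.29. DMP1, a phosphoprotein of osteocytes, had 6.40 and 6.89 in D2 but 6.82 in D6 array 1 and 11.84 in D6 array 2. Its mean difference of 2.69 ± 1.93 therefore came from 1 array and was 0.18 without it. Among cartilage genes, ACAN, the core of aggrecan, had 9.68 and 8.91 against 8.15 and 8.62 (-0.91 ± 0.40), SOX9, the chondrocyte transcription factor, differed by -0.23 ± 0.15, and COL2A1 by 0.16 ± 0.26. MATN3, a cartilage matrix protein, had 4.96 and 5.40 against 5.46 and 7.04 while C had 10.12 and 10.08. None of these cartilage genes passed over all 8 arrays. Between D2 array 1 and D6 array 2 alone, MATN3 differed by 2.08.

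**Figure D5:**
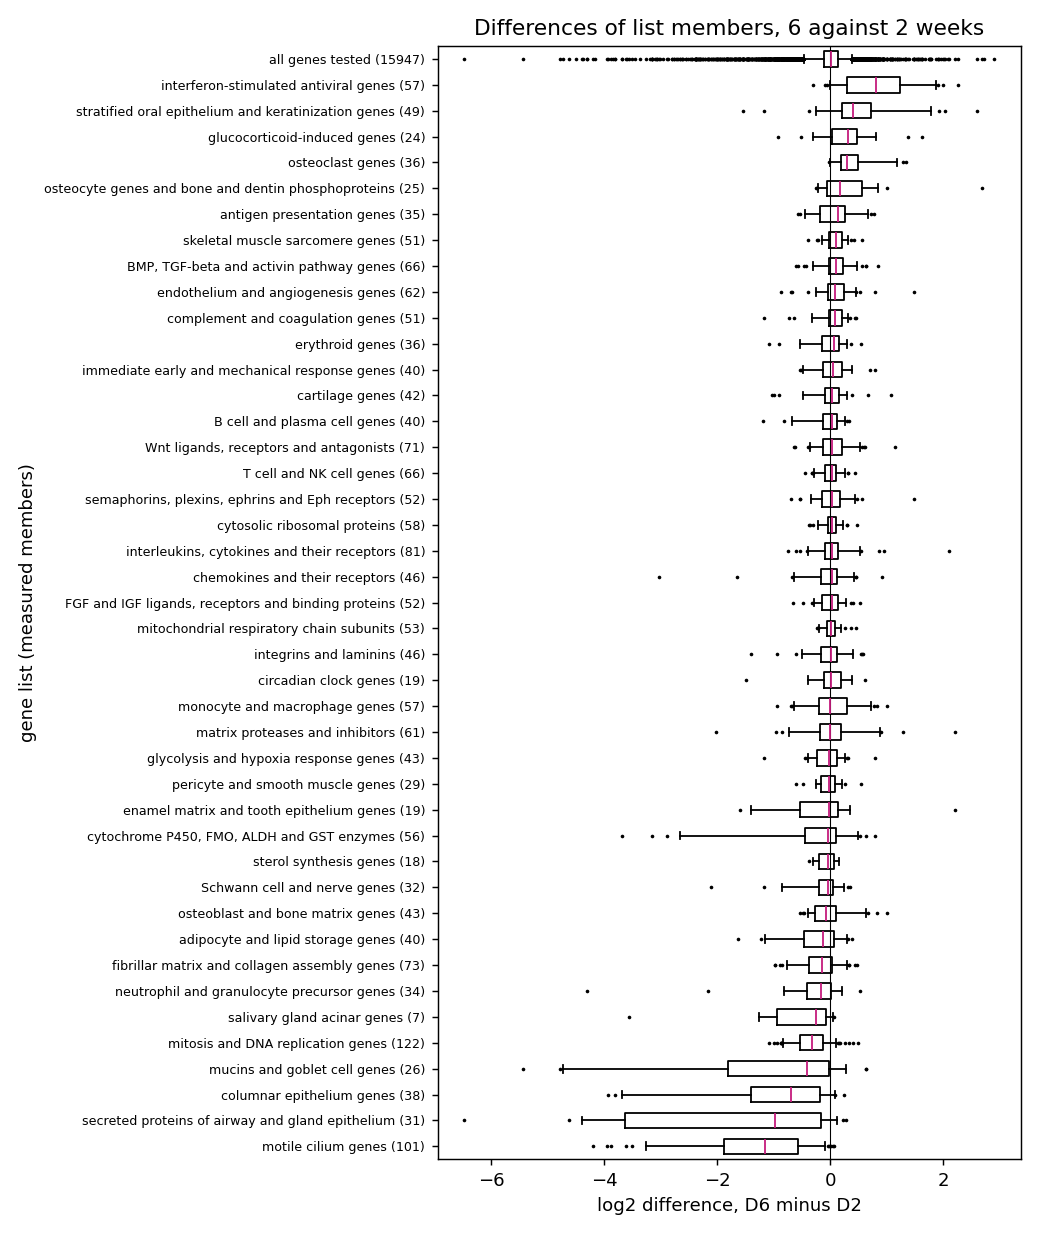
Boxes show the log2 difference D6 minus D2 of the measured members of each gene list, with the number of members in brackets, the median in pink, whiskers from the 5th to the 95th percentile and the other members as points. The interferon list is shifted to the right (median 0.81) and the cilium (-1.15), airway secretion (-0.97) and columnar epithelium (-0.69) lists to the left, while most other lists sit at the median of all genes (0.02).

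The remaining lists held no called gene in limma. The plot of differences by list shows them around 0. Their medians were 0.03 for T cell and NK cell genes, 0.04 for B cell and plasma cell genes, 0.06 for erythroid genes, 0.09 for endothelium, 0.10 for skeletal muscle and -0.03 for pericytes and smooth muscle. They were -0.12 for adipocyte genes, -0.05 for sterol synthesis, -0.01 for matrix proteases, -0.03 for enamel matrix, -0.25 for salivary gland, 0.02 for FGF and IGF, 0.03 for interleukins and cytokines, 0.03 for semaphorins and Eph receptors, and 0.01 for integrins and laminins. For complement and coagulation the median was 0.08, for immediate early genes 0.04, for the clock 0.01, for the respiratory chain 0.01 and for ribosomal proteins 0.03. In each of these lists between 0 and 6 members had an unadjusted limma p under 0.05, where 7.88% of all genes did. Some lists were above that share, among them enamel matrix (5 of 19), the clock (3 of 19), integrins and laminins (6 of 46) and adipocyte genes (5 of 40). Others were below it, for example T cell and NK cell genes (0 of 66) and ribosomal proteins (1 of 58). The largest differences in these lists, -3.57 for ZG16B, 2.21 for MMP20, 2.10 for IL36B and -2.03 for MMP12, came with replicates over 3 units apart. Smaller differences with the groups apart included that of DGAT2, an enzyme of triglyceride synthesis, at 8.65 and 8.75 in D2 and 7.68 and 6.45 in D6 (-1.64 ± 0.38, adjusted p = 0.0933). ARNTL2, a clock transcription factor, had 6.64 and 7.16 against 5.22 and 5.59 (-1.50 ± 0.35, adjusted p = 0.103). ESM1, a proteoglycan of sprouting endothelium, had 8.02 and 7.37 against 9.70 and 8.66 (1.49 ± 0.40, adjusted p = 0.176). EGR1, an immediate early transcription factor, had 9.53 and 9.62 against 10.43 and 10.31, the groups being apart with close replicates (0.80 ± 0.20, adjusted p = 0.146). IL6 and IL1B, cytokines of acute inflammation, were below 5 in all 4 arrays and differed by 0.19 ± 0.31 and -0.28 ± 0.23. In the fit without D2 array 2 and D6 array 1, which sets D6 array 2 against D2 array 1, some genes of these lists differed more and others less. The difference was -2.20 for DGAT2 and -2.50 for ADIPOQ, the adipocyte hormone adiponectin. It was -5.70 and -2.60 for the salivary genes ZG16B and LPO, and 3.62 for SEMA3E, a semaphorin. The difference shrank from -2.03 to -0.40 for MMP12, from 2.10 to 0.13 for IL36B and from 1.49 to 0.64 for ESM1.

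Genes of stratified oral epithelium differed more between the arrays of a time than between the times. Of the 49 measured genes 0 passed in limma and 3 had an unadjusted p under 0.05, the median was 0.41, and without D2 array 2 and D6 array 1 it was 0.06. KRT76, a keratin of the oral palate and gingiva, had 5.93 and 6.36 in D2, 11.64 in D6 array 1 and 5.82 in D6 array 2. KRT5, a keratin of basal epithelial cells, had 6.72 and 10.39 in D2 and 11.56 and 6.58 in D6. The list was over 1 log2 unit higher in D6 array 1 than in D6 array 2 for 32 of 49 genes, and in D2 array 2 than in D2 array 1 for 22 of 49. IL36B and IL20RB, an epithelial cytokine and a receptor subunit that carried the largest differences among the interleukins, had values of 7.73 and 7.46 in D6 array 1 and at most 5.67 in the other D2 and D6 arrays. The part of this epithelium in any other difference was not tested beyond the values given without the 2 arrays.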

How the data were processed

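RNA from dog alveolar bone was hybridised to whole-transcript arrays, 2 in each of 4 groups. The values are those the authors deposited in the series table and were treated as log2, since the lowest was 0.914 and the highest 14.5. The sources used here do not give how probe signals were corrected, normalized and summarised, or which logarithm was taken. No column of the table lacked a sample.

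Of 22708 probe sets, 16545 had 1 gene symbol, 370 had several and 5793 had none listed. Of the 16545, 15820 had an identifier in RefSeq (UU_Cfam_GSD_1.0), and 0 symbols changed. For 516 genes with several probe sets the one with the highest mean was kept, and no dim gene was removed. The genome build of the array is not given, so no coordinates or sequences are printed.

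The test was limma 3.58.1 under R 4.3.3 (lmFit on 4 group means, eBayes with a variance trend, 4 residual degrees of freedom, two-sided), with Benjamini-Hochberg adjustment over 15947 genes and a threshold of 0.05. The procedure was tested on simulated data. "Rose" and "fell" are used only past that threshold, and ± is limma's standard error. Groups are called apart when both arrays of a group lie above both of the other.

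The 42 gene lists and the members were chosen with earlier results of these data known, so counts and medians of lists are descriptions. Genes were named by rule: the 15 largest rises and falls past the threshold with groups apart, from each list up to 4 members past the threshold or, with none, up to 2 with the largest difference, key bone, cartilage and cytokine genes, and cell type markers. Other names are said to be chosen after their values were seen, or were taken from the list they describe. Alternatives changed the arrays in the fit, the variance model, a filter on dim genes (the lowest 25%), the scaling, the probe sets and the replicate block, and left out arrays.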

Additional observations from a re-analysis of the deposited data

How the results depend on the processing

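No named gene past the threshold changed direction under any of the 19 alternatives. Of 928 values for the 49 such genes, 791 stayed past the threshold and 137 did not. Of the 73 named genes not past it, 31 passed under at least 1 alternative. The count of all calls, 268, lay between 264 and 293 with only the D2 and D6 arrays in the fit, another variance model, another scaling, averaged probe sets or all probe sets tested. Leaving out the dimmest 25% of genes gave 173 calls with 144 falls, with fewer genes tested. Leaving out 1 array gave 145 to 315 calls, 7 to 52 rises and 138 to 266 falls, the lowest in each case without D2 array 1. Without D2 array 2 and D6 array 1 there were 194 calls, 28 rises and 166 falls. With the replicate block, the numbers in the titles, there were 241 calls, 25 rises and 216 falls. Same-numbered arrays of D2 and D6 deviated from their group means with a correlation of -0.258 across genes, so the numbers were not read as pairs. Crossed pairing of the D2 and D6 arrays, chosen after seeing the data and with 1 residual degree of freedom, gave 451 calls, 107 rises and 344 falls. Of the named genes not past the threshold over all 8 arrays, 12 changed sign when arrays were left out, and the cause was not tested beyond the array left out. Leaving out 1 array gave log2 differences from -0.32 to 5.50 for KRT76, -0.77 to 4.86 for DSG1, -0.34 to 1.40 for FGFBP1, -0.23 to 4.44 for IL36B and -0.40 to 2.30 for IL20RB, each lowest without D6 array 1 and, past the threshold, highest without D6 array 2. The range was -2.58 to 0.12 for ADIPOQ, -0.49 to 3.44 for SEMA3E, -0.33 to 0.37 for BGLAP and -0.19 to 0.61 for TNFRSF11B, with the changed sign without D6 array 2 and, for ADIPOQ and SEMA3E, a call without D6 array 1. It was -0.05 to 0.21 for RUNX2, -0.07 to 0.32 for IBSP and -0.83 to 0.11 for POSTN. IBSP was also below 0, at -0.05, without D6 array 1, and BGLAP, at -0.14, without D2 array 2. With D2 array 2 and D6 array 1 both left out, the differences were -0.10 for KRT76, -0.15 for FGFBP1, -0.00227 for RUNX2, -0.25 for IBSP and 0.12 for POSTN. No background signal was used, so a low value has no known distance from background.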

Other observations

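Of the 234 falls, 133 were in none of the 42 lists. After VMO1, the 4 largest of these with a gene name, chosen after their values were seen, were GABRP, SLC44A4, AOX2 and RIBC2. GABRP, a chloride channel subunit of the GABA receptor family that is made outside the nervous system, had 8.01 and 8.23 in D2 and 4.64 and 3.91 in D6 and fell by -3.84 ± 0.23. SLC44A4, a choline-like transporter of epithelia, had 9.08 and 8.68 against 5.46 and 5.09 and fell by -3.60 ± 0.22. AOX2, an aldehyde oxidase, had 7.14 and 7.78 against 3.90 and 4.30 and fell by -3.36 ± 0.31. RIBC2, a protein of ciliary microtubules, had 7.22 and 6.72 against 3.85 and 3.76 and fell by -3.16 ± 0.23. In all 4 genes both D2 arrays were above both D6 arrays, and the C arrays were at 5.66 or below.

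In several falls outside the lists, AOX2 and RIBC2 among them, the D6 arrays were the lowest of all 8. SLITRK6 and LGI1 were further cases, with falls of -1.10 and -1.57, and HSPB8 and GNA14 are described here. HSPB8, a small heat shock protein, had 6.98 and 7.07 in D2, 6.05 and 6.23 in D6, 7.29 and 7.14 in C and 7.14 and 6.99 in DT6, and fell by -0.89 ± 0.14 (adjusted p = 0.0159, and 0.622 without D2 array 2 and D6 array 1). GNA14, a G protein subunit, had 6.94 and 6.88 against 6.26 and 6.03, with 6.87 and 6.97 in C and 6.95 and 6.86 in DT6, and fell by -0.77 ± 0.14 (adjusted p = 0.034, and 0.341 without D2 array 2 and D6 array 1). SLC31A1, a copper importer, had 10.51 and 10.38 against 9.67 and 9.63, with 9.36 and 9.40 in C, and fell by -0.79 ± 0.13 (adjusted p = 0.0147, and 0.387 without those arrays), with D6 nearer than D2 to sound bone. HSPB8, GNA14 and SLC31A1, like SLITRK6 and LGI1, were chosen after their values were seen.

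The arrays of a group were not equally alike. Counting genes over 1 log2 unit apart between replicates gave 103 for the C arrays, 119 for those of D2, 242 for D6 and 367 for DT6. In D6, 174 of these were higher in array 1 and 68 in array 2. The genes below were chosen after their values were seen. Higher in D6 array 2 than in D6 array 1 were SEMA3E, a semaphorin (4.59 and 8.51), MMP20, the enamel protease also made by odontoblasts (5.19 and 8.84), RELN, the matrix protein reelin (6.24 and 8.22), and B4GALT6, a galactosyltransferase (5.52 and 8.02). In C these genes stood at 8.08 and 8.88, 7.81 and 8.0, 8.40 and 8.93, and 7.70 and 8.30, and in D2 at most at 6.50. DMP1 showed the same order, at 6.82 and 11.84 in D6 and 9.63 and 11.62 in C. These genes were picked for their gap between the D6 arrays, so they do not measure how common it is. Each of them was also higher in DT6 array 1 than in DT6 array 2, for example DMP1 at 12.25 and 6.23 and MMP20 at 7.67 and 4.91.

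In D2, 25 genes were over 1 unit higher in array 1 and 94 in array 2. Higher in D2 array 1 were gland products: ZG16B, a salivary lectin (10.95 and 5.95), OBP2B, an odorant-binding protein (10.46 and 5.89), and LPO, the lactoperoxidase of saliva and airway fluid (7.17 and 4.82). The 7 measured salivary gland genes averaged 6.15 and 4.98 in D2, 4.72 and 4.75 in D6, 4.75 and 4.75 in C, and 5.97 and 5.42 in DT6, and 0 of them passed in limma with 1 at an unadjusted p under 0.05. Without D2 array 2 and D6 array 1, the array of D2 left in the fit was the one high in gland products. There ZG16B and LPO differed by -5.70 and -2.60. Some genes of the granulocyte list, chosen after their values were seen, were high in the same arrays as the oral epithelium genes. The list of 34 genes averaged 5.86 and 6.21 in D2 and 5.98 and 5.40 in D6. Its member LTF was higher in D2 array 1, at 10.10 and 8.95. S100A8 and S100A9, the calprotectin subunits that squamous epithelium also makes, had 6.08 and 8.91, and 7.52 and 10.44, in D2 and 10.13 and 4.17, and 11.24 and 6.58, in D6. S100A12 had 7.31 and 9.80 in D2 and 10.41 and 5.49 in D6.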
